A study of Mus musculus with 36 samples.

Results

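Glioma cells grown alone were compared after 24 h with myelin debris and before it, at 0 h, by bulk RNA sequencing. The 6 libraries were chosen by their titles, as mono-culture tumour cells at either time, and are 6 of the 36 libraries of the series. The cells were of 1 line, PDG-Ink4a Recurrent, from a mouse brain tumour that arose from PDGFB expression in Nestin-positive progenitors on an Ink4a/Arf-null background. The 3 libraries at 24 h received 24 hour myelin debris and the 3 at 0 h are labelled Control. The line, the PDGFB expression and the Ink4a/Arf deletion are shared by all of them, no other line was used, and the labels name no separate cultures, so p-values measure the spread between these libraries, which may be technical. Myelin and time in culture change together between the groups, and how long the 0 h cells had been kept is not in the labels, so myelin and time cannot be told apart. The other libraries drawn on are 3 of the same cells at 6 h, 6 of tumour cells co-cultured with macrophages at 24 h and 0 h, and 6 of bone marrow-derived macrophages alone at 24 h and 0 h.

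Myelin is the lipid-rich sheath that oligodendrocytes wrap around axons, and its debris is a source of cholesterol and fatty acids for cells that take it up. Cells that load cholesterol switch on the liver X receptor (LXR), which drives export through Abca1 and Abcg1, and hold back the SREBP factors that drive sterol synthesis. Interferons act through a complex that holds Stat2 and Irf9, which binds the interferon-stimulated response element in the promoters of antiviral genes. Growth factor receptors act through the MAP kinases, whose targets are the immediate early genes and the phosphatases and Sprouty proteins that limit the pathway, and E2F factors switch on the genes of DNA replication as cells enter S phase.

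The 6 libraries held 11574383 to 13549618 counts each. The targeted locus was read first. Cdkn2a, the gene of the deleted locus, stood at only 3.17, 2.32 and 2.75 CPM (TMM-scaled counts relative to library size) at 24 h and 2.96, 2.98 and 2.49 CPM at 0 h, in the order of library numbers 001, 002 and 003, while its neighbour Cdkn2b stood at 122, 102 and 104 CPM and 103, 103 and 88.0 CPM. The protocol calls these cells MES-like (mesenchymal-like), and their glial markers were uneven. Ptprz1 had 1 count over the 6 libraries and Gfap 1 to 5 counts in each, while Gja1 averaged 303 CPM at 24 h and 374 CPM at 0 h. Sox9 averaged 86.9 CPM and 70.3 CPM, and the collagen gene Col1a1 9511 CPM and 10760 CPM. Deviations from the group means correlated at 0.771, 0.50 and 0.627 between the 24 h and 0 h libraries of numbers 001, 002 and 003, and the main test carries the number as a block. The highest correlation with another number was -0.598, 0.602 and 0.551, so libraries 002 and 003 correlated about as well with each other as with their own number. Number 001 stood apart from both on the first principal component, which held 52% of the variance of the 18 tumour cell libraries.

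Libraries 002 and 003 of these mono-culture tumour cells held transcripts typical of macrophages, and more of them at 24 h. The median level of 50 macrophage genes, relative to pure macrophages at 0 h, was 0.00407%, 1.31% and 1.61% at 24 h in numbers 001, 002 and 003, against 0.00996%, 0.340% and 0.417% at 0 h. These 50 were picked for the highest ratio of macrophages to the tumour libraries, which holds this share down. With another list of macrophage markers it was 0.0474%, 4.56% and 5.95% at 24 h, against 0.0306%, 0.961% and 1.28% at 0 h. The means over the 50 genes were 0.973% ± 0.852 and 0.256% ± 0.216 (SD, n = 3 each), which an exact two-sided permutation test did not separate (p = 0.40, where 0.10 is the smallest p this design allows). Genes over 20 times higher in macrophages are therefore marked as macrophage genes throughout, and values for number 001, which has next to none of this RNA, are given beside the results it touches. The 20 listed macrophage markers, all of them detected, summed to 21.1 to 2320.0 CPM at 24 h, against 16.9 to 457 CPM at 0 h. Of these 17 rose (12.9% of all genes did), and none was called without the number as a block. Their median log2 change was -0.12, 2.05 and 2.08 within numbers 001, 002 and 003. Of 8 lymphoid markers 6 were at 0 in all 6 libraries, and their sum was at most 0.0817 CPM at 24 h and 0.0864 CPM at 0 h. In bulk libraries fewer cells of a type and less RNA per cell cannot be told apart.

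At 24 h, 3793 of 13603 tested genes (27.9%) differed from 0 h at an adjusted p under 0.05 (edgeR quasi-likelihood test), 1757 higher (12.9%) and 2036 lower (15%). Of these, 578 rose and 308 fell by at least 2-fold. DESeq2 called 3722. Without the genes marked as macrophage genes the count was 3523, of which 1510 were higher, and with no number block it was 1424, 498 higher (3.66%) and 926 lower (6.81%). The count rests on numbers 002 and 003 more than on 001: it was 4915 without number 001, 1245 without 002 and 673 without 003, and 2524 and 2125 without the 24 h library of number 002 or of 003 alone. The libraries of the 2 times did not overlap for 4640 genes (34.1%).

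**Figure D1:**
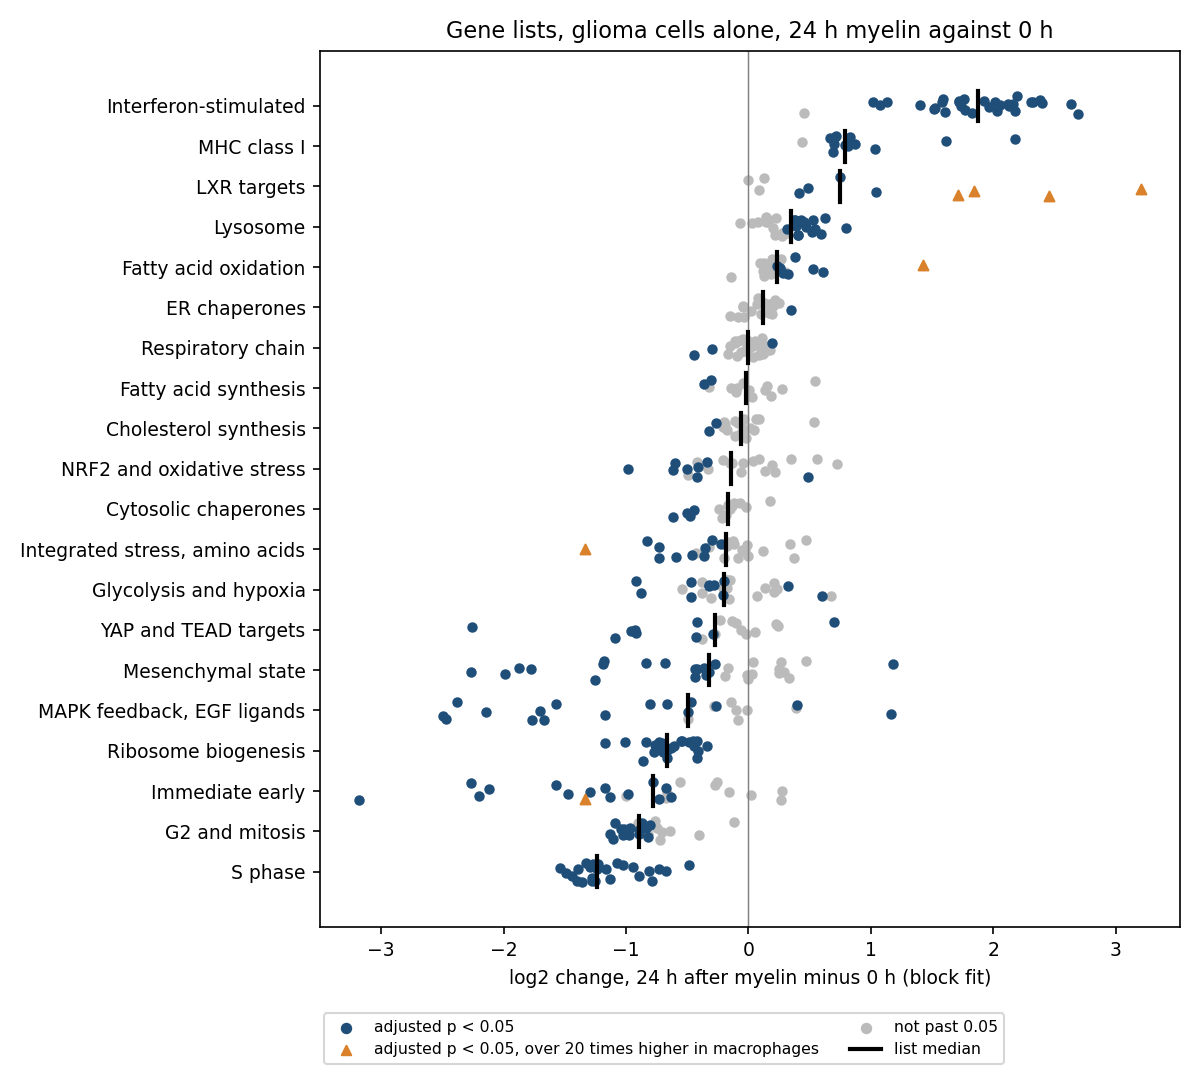
Log2 change at 24 h against 0 h in glioma cells alone (x axis) for each tested gene of 20 gene lists (rows). Each dot is a gene, orange triangles are macrophage genes, and the black bar is the list's median. The interferon list has a median of 1.88 and the S phase list a median of -1.24, while the cholesterol synthesis list lies around its median of -0.06.

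Interferon-stimulated genes rose with 1 exception. Of 32 tested list members 31 rose (12.9% of all genes did), with a median log2 change of 1.88 against 0.01 over all genes. Their summed level was 2237 to 2373 CPM in the 3 libraries at 24 h, against 629 to 743 CPM at 0 h. The median was 1.88, 1.85 and 1.99 within numbers 001, 002 and 003, so it was as large in the number with next to no macrophage RNA. Ifit2 was the one member past no threshold (0.46, adjusted p = 0.134). Fitted without the block 26 members rose, and leaving out one number left 24 to 32.

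Promoters of 2 interferon-stimulated genes and of the antiviral gene Rsad2 are printed as genes whose promoter holds the element searched; that of Oasl2, described with them, held none. They run 5′ to 3′ along the gene's strand, from 250 bases before to 50 after the start in RefSeq (GRCm38.p6), and capitals mark matches of GAAANNGAAA on either strand, a form of the interferon-stimulated response element. Ifit1 lies on chr19:34640639-34640938 (plus strand) with 2 matches, Isg15 on chr4:156200769-156201068 (minus strand) with 3 that overlap, and Rsad2 on chr12:26456403-26456702 (minus strand) with 1.
Ifit1: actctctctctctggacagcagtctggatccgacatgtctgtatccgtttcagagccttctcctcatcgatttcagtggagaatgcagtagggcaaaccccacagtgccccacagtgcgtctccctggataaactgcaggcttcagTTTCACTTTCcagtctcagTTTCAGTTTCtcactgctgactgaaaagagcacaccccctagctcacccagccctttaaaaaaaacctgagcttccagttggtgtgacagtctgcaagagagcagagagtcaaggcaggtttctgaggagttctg
Isg15: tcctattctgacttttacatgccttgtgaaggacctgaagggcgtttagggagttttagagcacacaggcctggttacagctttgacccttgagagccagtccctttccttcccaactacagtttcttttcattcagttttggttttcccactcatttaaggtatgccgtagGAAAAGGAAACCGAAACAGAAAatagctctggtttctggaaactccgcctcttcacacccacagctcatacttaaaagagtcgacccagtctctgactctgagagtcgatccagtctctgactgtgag
Rsad2: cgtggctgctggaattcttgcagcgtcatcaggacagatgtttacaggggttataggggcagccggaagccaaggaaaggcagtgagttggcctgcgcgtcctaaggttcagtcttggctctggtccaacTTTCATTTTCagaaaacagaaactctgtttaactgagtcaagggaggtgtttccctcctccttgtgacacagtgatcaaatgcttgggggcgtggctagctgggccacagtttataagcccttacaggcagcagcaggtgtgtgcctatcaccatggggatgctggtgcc
Of the 23 list members whose promoter RefSeq holds, 15 (65.2%) held this match, against 388 of 10166 tested genes (3.82%) and 1079 of all 27025 promoters (3.99%). Among genes that rose at least 2-fold and are no macrophage genes, 52 of 257 promoters (20.2%) held it. A match is a description of these letters and does not show binding.

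The members span the pathway from sensor to effector. Ifit1 (chr19:34640871-34650009), which binds foreign RNA caps, stood at 268, 257 and 239.7 CPM at 24 h and 72.1, 43.5 and 39.4 CPM at 0 h in numbers 001, 002 and 003, a log2 change of 2.38 ± 0.27 (SE, n = 3 each, adjusted p = 0.000117). Isg15, a ubiquitin-like modifier, stood at 74.0, 79.5 and 87.9 CPM, against 13.3, 18.2 and 16.4 CPM (2.32 ± 0.33). For both genes every library at 24 h lay above every library at 0 h. Oasl2, of the oligoadenylate synthetase family, was at 91.6, 145 and 144 CPM and 15.3, 24.1 and 22.1 CPM (2.63 ± 0.37). The GTPases Mx1 and Mx2, which trap viral nucleocapsids, rose by 2.69 ± 0.59 and 2.40 ± 0.38, Mx2 to 17.3, 14.8 and 13.2 CPM, against 2.56, 2.81 and 3.07 CPM. Of the signalling factors, Stat2 was at 173, 172 and 167 CPM and 44.8, 55.4 and 49.8 CPM (1.77 ± 0.21). Irf7 (1.92) and Irf9 (1.07) rose too, as did the RNA sensors Dhx58 (2.20) and Ifih1 (1.60). Usp18, which removes Isg15 and damps the receptor, rose by 2.03 ± 0.27. The chemokine Cxcl10 rose by 1.59 ± 0.54 with overlapping libraries (58.4, 10.2 and 9.20 CPM at 24 h, 16.4, 3.89 and 3.40 CPM at 0 h).

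**Figure D2:**
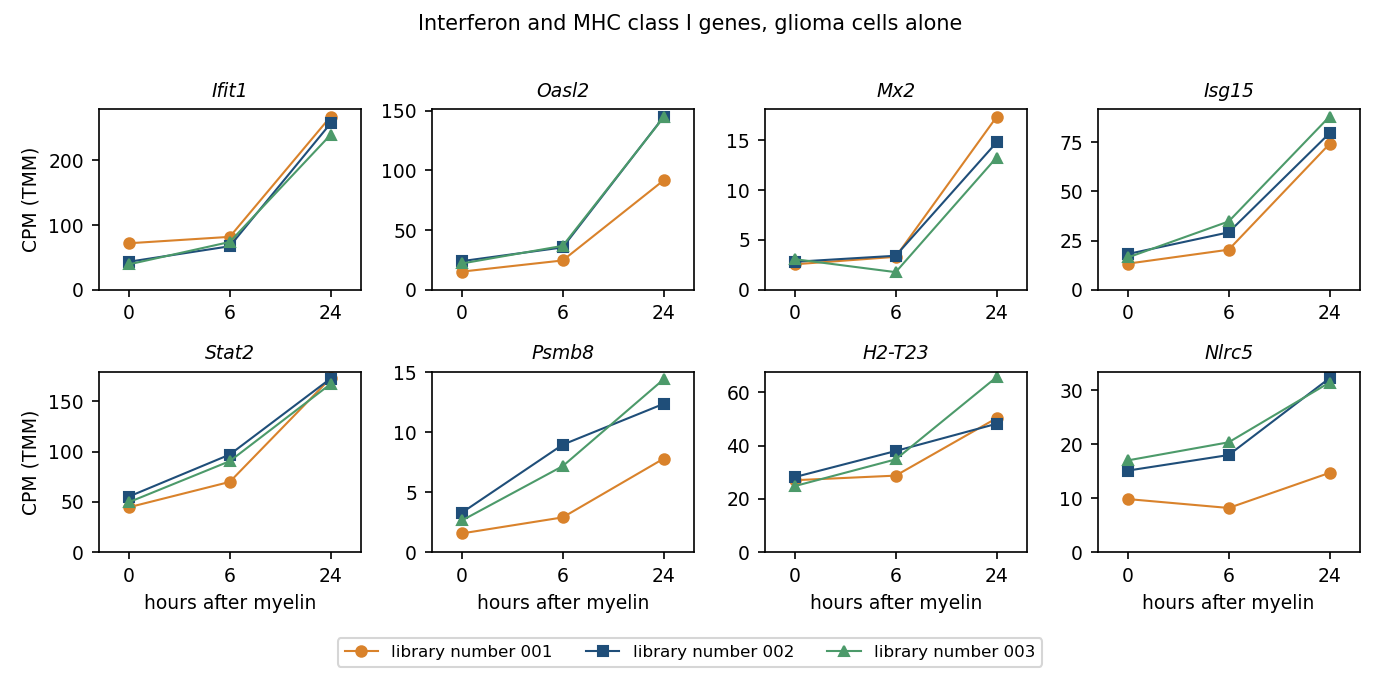
TMM-scaled CPM (y axis) over 0, 6 and 24 h (x axis) in glioma cells alone for Ifit1, Oasl2, Mx2, Isg15, Stat2, Psmb8, H2-T23 and Nlrc5. Lines join libraries of 1 number. In every number the 24 h value of Ifit1 is above its 0 h and 6 h values.

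Genes of MHC class I antigen presentation rose by less. Of 13 tested members 12 rose (12.9% of all genes did), with a median of 0.79 on the log2 scale. B2m, the light chain, did not pass (0.43, edgeR adjusted p = 0.0622). The immunoproteasome subunit Psmb8 stood at 7.80, 12.4 and 14.4 CPM at 24 h and 1.58, 3.31 and 2.66 CPM at 0 h (2.18 ± 0.35, adjusted p = 0.000676), and Psmb9 rose by 1.61 ± 0.31. Psmb8 was 17.8 times higher in macrophages than in these cells, and its rise was seen in number 001 as in the others. H2-T23, a nonclassical class I heavy chain, was at 50.2, 48.1 and 65.6 CPM and 27.0, 28.2 and 24.8 CPM (1.04 ± 0.21). The libraries of the 2 times stood apart for both genes. The classical heavy chains H2-K1 (0.70) and H2-D1 (0.70), the peptide pump genes Tap1 (0.83) and Tap2 (0.79) and the class I transactivator Nlrc5 (0.87) rose by 0.70 to 0.87. Class I heavy chain genes are near-copies of each other, and the sources do not say how reads were shared among them. The number block matters to this list: 7 members rose without it, and 7 without number 002 against all 13 without 001. Without number 003 no member passed in edgeR, while 10 were higher at an unadjusted p under 0.05 and the median was 0.71.

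Growth factor signalling genes fell. Of 25 immediate early genes 15 fell (15% of all genes did), none rose by edgeR or DESeq2 (1 was higher at an unadjusted p under 0.05), and the median log2 change was -0.78. Egr3 (chr14:70077203-70082614), a zinc finger factor induced by MAP kinase, had 2.68, 4.02 and 6.73 CPM at 24 h and 82.2, 23.6 and 27.4 CPM at 0 h (-3.18 ± 0.50, adjusted p = 0.000682). Fosl1, an AP-1 subunit, had 9.02, 11.1 and 10.4 CPM and 48.0, 48.9 and 47.1 CPM (-2.26 ± 0.26). In both, all 24 h libraries were below all 0 h libraries, and the fall of Egr3 was largest in number 001. Egr1 fell to 36.6, 153 and 189.7 CPM, against 244, 429 and 324 CPM (-1.58 ± 0.32), Egr2 fell by 2.20 ± 0.57 and Nr4a1 by 2.12 ± 0.61. Jun fell by 1.47 ± 0.17 and the growth regulator Myc by 1.17 ± 0.12, from libraries that did not overlap (59.4, 78.1 and 75.1 CPM at 24 h, 118, 181 and 188 CPM at 0 h). Fos itself gave no call, with 7.15, 95.4 and 132 CPM and 28.8, 134 and 75.6 CPM (-0.27), its levels lying apart by library number. Fitted without the block 11 members fell, and 8 without number 002, where the calls of Egr1 and Egr2 were lost. That of Egr1 was lost without the block too. With only the libraries compared 10 members fell and 1 rose, and the calls of Egr1, Egr2 and Egr3 were lost.

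Feedback inhibitors and ligands of the same pathway moved with them. Of 23 list members 14 fell and 2 rose (15% and 12.9% of all genes did), with a median of -0.50. Hbegf, a membrane-bound ligand of the EGF receptor, had 15.6, 16.0 and 17.8 CPM at 24 h and 73.2, 90.9 and 94.2 CPM at 0 h (-2.38 ± 0.19, adjusted p = 2.21e-05). Dusp5, a nuclear phosphatase of ERK, had 6.75, 8.43 and 10.1 CPM and 43.5, 46.0 and 48.8 CPM (-2.50 ± 0.23). Errfi1, which inhibits the EGF receptor, had 19.3, 36.5 and 30.4 CPM and 149, 115 and 97.3 CPM (-2.14 ± 0.30). No 24 h library reached the lowest 0 h library in any of these genes. The ligands Areg and Ereg fell by 2.47 ± 0.61 and 1.57 ± 0.24, the phosphatases Dusp4 and Dusp6 by 1.70 ± 0.22 and 0.80 ± 0.26, and the ERK-dependent factor Etv4 by 1.76 ± 0.18. Against this trend the ligand Tgfa rose by 1.16 ± 0.22 and the receptor Egfr by 0.40 ± 0.11. Without the block 8 members fell, and 9 fell without number 002 as without 003. The calls of Tgfa and Egfr were lost in each of these fits, and without either number none rose by edgeR (2 at an unadjusted p under 0.05 each time).

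**Figure D3:**
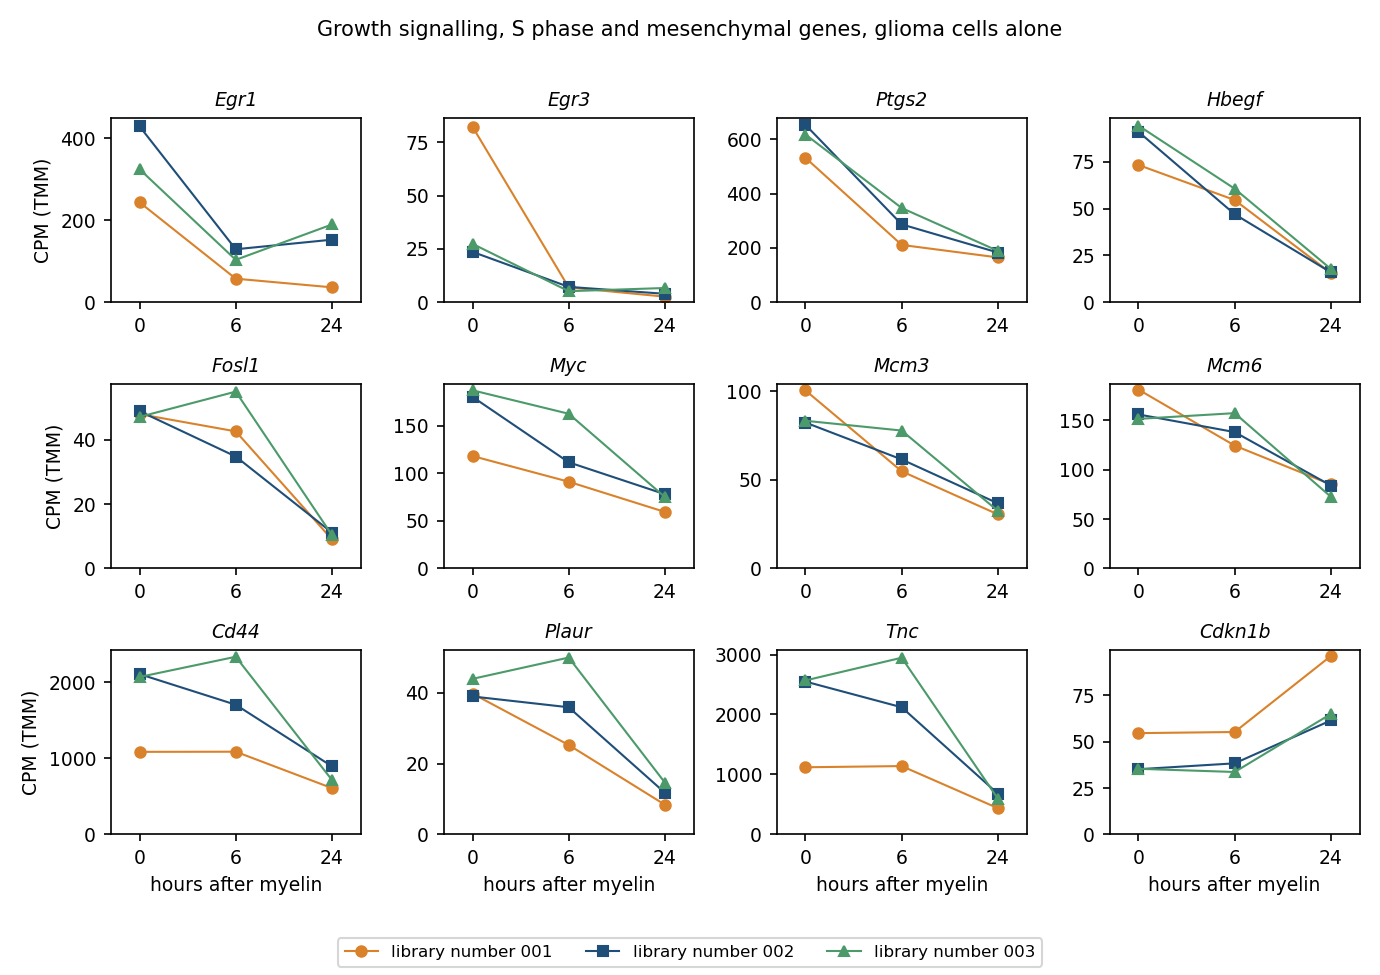
TMM-scaled CPM (y axis) over 0, 6 and 24 h (x axis) in glioma cells alone for Egr1, Egr3, Ptgs2, Hbegf, Fosl1, Myc, Mcm3, Mcm6, Cd44, Plaur, Tnc and Cdkn1b, with a line for each library number. Egr1 and Egr3 are low at 6 h already, while Tnc and Cd44 are low at 24 h only.

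All 25 tested S phase genes fell (15% of all genes did), with a median of -1.24 on the log2 scale. Mcm3 (chr1:20802968-20820312), of the helicase that opens replication origins, had 30.5, 36.7 and 32.4 CPM at 24 h and 100.5, 82.3 and 83.3 CPM at 0 h (-1.44 ± 0.20, adjusted p = 0.00028), and Mcm6 had 85.1, 84.0 and 72.6 CPM and 181, 156 and 152 CPM (-1.02 ± 0.15). Ccne2, the cyclin of S phase entry, had 8.05, 13.2 and 9.12 CPM and 33.8, 21.8 and 27.0 CPM (-1.49 ± 0.27). The 24 h and 0 h libraries overlapped in none of the 25 genes, where 34.1% of all genes did not overlap. Their changes ran from Chaf1b, a histone chaperone subunit (-1.54), to Tyms, which makes thymidylate (-0.49). The median was -1.58, -0.77 and -1.11 within numbers 001, 002 and 003. Without the block 23 fell, and 14 without number 003.

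Of 20 S phase genes whose promoter RefSeq holds, 7 (35.0%) held TTTGGCGC or TTTCCCGC, forms of the E2F site searched on either strand, against 349 of 10166 tested genes (3.43%) and 486 of 27025 promoters (1.8%). Mcm3 (chr1:20820263-20820562, minus strand) and Mcm6 (chr1:128359656-128359955, minus strand) are printed as members with 2 matches each, in capitals, from the same RefSeq table.
Mcm3: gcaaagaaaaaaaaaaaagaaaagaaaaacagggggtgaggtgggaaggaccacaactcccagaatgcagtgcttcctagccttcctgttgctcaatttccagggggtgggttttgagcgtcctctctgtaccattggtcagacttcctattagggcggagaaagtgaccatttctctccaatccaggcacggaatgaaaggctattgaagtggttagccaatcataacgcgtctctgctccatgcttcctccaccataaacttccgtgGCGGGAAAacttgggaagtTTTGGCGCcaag
Mcm6: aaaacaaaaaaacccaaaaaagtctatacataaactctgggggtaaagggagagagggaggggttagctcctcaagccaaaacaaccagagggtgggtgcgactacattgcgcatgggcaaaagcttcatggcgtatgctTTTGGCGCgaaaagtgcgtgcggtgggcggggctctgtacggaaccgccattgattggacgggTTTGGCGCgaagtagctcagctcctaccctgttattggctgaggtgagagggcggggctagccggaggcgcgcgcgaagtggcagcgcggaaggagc
Among genes that fell at least 2-fold, macrophage genes left out, 19 of 213 promoters (8.92%) held such a match.

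Genes of G2 and mitosis fell less uniformly. Of 25 members 14 fell by edgeR (15% of all genes did) and 20 by DESeq2, with a median of -0.89. The cyclin Ccna2 had 36.9, 31.2 and 24.3 CPM at 24 h and 130.3, 43.2 and 44.0 CPM at 0 h (-1.13 ± 0.31, adjusted p = 0.0142), and the kinase Aurkb had 12.5, 9.97 and 10.1 CPM and 41.9, 15.5 and 16.3 CPM (-1.11 ± 0.32). Both fell most in number 001, whose 0 h library was far above the other two. Mki67, the Ki-67 antigen, was at 108, 97.7 and 79.6 CPM and 313, 94.4 and 105 CPM, with no call (-0.70, adjusted p = 0.136). The median within numbers was -1.38, -0.25 and -0.75, and without the block 1 member fell. Without number 002 also 1 fell, and the calls of Ccna2 and Aurkb were lost. Without number 003 none passed in edgeR, while 13 were lower at an unadjusted p under 0.05 and the median was -0.96. No member passed in edgeR without the 0 h library of number 001 alone (4 at an unadjusted p under 0.05, median -0.48), without the 24 h library of number 003 (17 unadjusted) or with no filter on low counts (18 unadjusted), and 8 fell with only the libraries compared.

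Regulators of the G1 phase were mixed. Of 14 cyclins D, partners and inhibitors 5 fell and 2 rose, where 15% of all genes fell and 12.9% rose. Cdkn1b (p27), which inhibits cyclin E kinase, had 96.2, 61.5 and 65.0 CPM at 24 h and 54.6, 35.1 and 35.4 CPM at 0 h (0.83 ± 0.08, adjusted p = 2.67e-05). The kinase Cdk6 had 68.1, 89.7 and 79.4 CPM and 115, 148 and 156 CPM (-0.81 ± 0.12). The 2 times did not overlap for either gene. Ccnd1 fell by 0.44 ± 0.09 and Ccnd3 rose by 0.24 ± 0.07. Of 20 p53 targets 9 fell, among them the kinase Plk2 (by 1.45 ± 0.18) and Cdkn1a (by 0.29 ± 0.10), and 2 rose, the death receptor Fas (0.95 ± 0.20) and Sesn1 (0.75 ± 0.10). Without number 003 there was 1 higher and 1 lower member in each of these lists, and the calls of Ccnd1, Cdkn1a and Fas were among those lost, while those of Cdk6 and Plk2 held.

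Ribosome biogenesis genes fell together but by little. All 24 were lower (15% of all genes were), with a median of -0.66. All but Rrp9 had libraries that did not overlap, where 34.1% of all genes did not. Dkc1, the pseudouridine synthase, had 25.7, 31.1 and 28.3 CPM at 24 h and 47.8, 57.3 and 66.5 CPM at 0 h (-1.005 ± 0.19, adjusted p = 0.0017). Polr1b, of RNA polymerase I, had 18.2, 21.3 and 20.7 CPM and 30.9, 40.8 and 38.3 CPM (-0.87 ± 0.15). The nucleolar proteins Ncl and Npm1 fell by 0.64 ± 0.10 and 0.42 ± 0.11. The count was 13 without the block and 11 without number 003, where the median was -0.61 and the call of Dkc1 was lost.

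Mesenchymal glioma genes fell as well. Of 29 tested members 16 fell (15% of all genes did) and Cebpd, a C/EBP factor, rose (1.18 ± 0.24), with a median of -0.33. Cd44, the hyaluronan receptor, had 608, 895 and 715 CPM at 24 h and 1085, 2108 and 2070.0 CPM at 0 h (-1.18 ± 0.16, adjusted p = 0.00029). Plaur, the urokinase receptor, had 8.37, 11.8 and 14.6 CPM and 39.8, 39.0 and 44.0 CPM (-1.88 ± 0.21). Both were lower in every 24 h library than in any 0 h library. Nes, encoding nestin, fell by 1.05 ± 0.28 and Vim by 0.42 ± 0.09, while Anxa1 (-0.01), S100a4 (0.03) and Spp1 (0.47) gave no call. The number of members that fell was 10 without the block, 7 without number 002 and 8 without 003, and the call of Nes was lost in each of these fits. Of 19 YAP and TEAD targets 8 fell, led by Ankrd1 (17.6, 36.1 and 31.8 CPM at 24 h, 106, 145 and 133 CPM at 0 h, -2.26 ± 0.34) and Ccn2 (467, 910.1 and 978 CPM, 1137, 1870.0 and 1931 CPM, -1.09 ± 0.16), and Tgfb2 rose (0.70 ± 0.16). Its call was lost without the block and without number 002 or 003. Yap1 itself stood at -0.06, and 5 members fell without number 002 and 4 without 003.

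Called genes of the PDGF system changed by little. Counts are of genes on build mm10, and whether they include the PDGFB that drives this line was not tested. The receptor Pdgfra had 141, 156 and 151 CPM at 24 h and 125, 122 and 122 CPM at 0 h (0.28 ± 0.09, adjusted p = 0.0295). The ligands Pdgfa and Pdgfc fell by 0.41 ± 0.10 and 0.29 ± 0.08, while Pdgfb, a macrophage gene by the mark, had 1.30, 3.48 and 4.63 CPM and 2.66, 4.88 and 5.56 CPM with no call (-0.51, adjusted p = 0.348). Of the genes of glial progenitors, the glutamate transporter Slc1a3 rose by 1.26 ± 0.44, the proteoglycan Cspg4 (NG2) fell by 0.78 ± 0.13, and the stem cell factor Sox2 gave no call (0.40). Of the 15 members of that list 2 rose and 2 fell, where 12.9% of all genes rose and 15% fell. The call of Slc1a3 was lost without the block, without number 002 or 003 and in DESeq2. Without number 002 or 003 the calls of Pdgfra, Pdgfa and Pdgfc were lost.

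Of 31 collagen and matrix genes 4 rose and 5 fell, where 12.9% of all genes rose and 15% fell. The small leucine-rich proteoglycan genes Ogn and Dcn rose: Ogn had 1139, 386 and 422 CPM at 24 h and 258, 71.3 and 68.7 CPM at 0 h (2.44 ± 0.29, adjusted p = 0.000165), and Dcn had 34.8, 89.6 and 79.9 CPM and 11.2, 25.3 and 25.4 CPM (1.70 ± 0.41). Each number went up in both genes, although number 001 sat far above the others in Ogn and below them in Dcn. Postn rose by 1.56 ± 0.28. Tnc, the matrix glycoprotein tenascin C, had 436, 677 and 595 CPM and 1119, 2549 and 2568 CPM (-1.78 ± 0.19), and Col15a1 fell by 2.14 ± 0.40. The main fibrillar collagen gene Col1a1 gave no call (-0.25 ± 0.21, adjusted p = 0.397). Of 22 protease genes and their inhibitors 5 rose, among them the aggrecanases Adamts5 (1.11 ± 0.19) and Adamts4 (0.59 ± 0.17), and 5 fell, among them Timp1 (by 1.19 ± 0.22) and Adam12 (by 1.13 ± 0.17). Without number 003, 2 matrix genes were called in each direction and Dcn lost its call, while 4 protease list genes fell and none rose by edgeR (4 at an unadjusted p under 0.05).

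Of 24 feedback genes of BMP and TGF-beta 4 rose and 6 fell, where 12.9% of all genes rose and 15% fell. Bmp4, a ligand, had 14.8, 9.89 and 9.56 CPM at 24 h and 8.67, 3.80 and 2.32 CPM at 0 h (1.36 ± 0.31, adjusted p = 0.00509), and Id3, a BMP target, had 113, 67.2 and 95.9 CPM and 85.6, 36.0 and 36.6 CPM (0.93 ± 0.24). The inhibitors Smad7 (22.1, 27.4 and 26.4 CPM, 36.1, 59.2 and 57.0 CPM, -0.98 ± 0.09) and Bambi (-1.06 ± 0.25) fell. Id3 was the one of these 4 whose libraries overlapped. Without number 002 none rose by edgeR (4 at an unadjusted p under 0.05) and 4 fell. Without number 003 none rose by edgeR (2 at an unadjusted p under 0.05) and 2 fell, Smad7 among them.

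Few lipid synthesis genes passed the test, where 27.9% of all genes did. Of 20 cholesterol synthesis genes 2 fell, where 15% of all genes fell, and the list's median was -0.06. Hmgcs1 stood at 457, 402 and 351 CPM at 24 h and 534, 394 and 355 CPM at 0 h (-0.07 ± 0.09, adjusted p = 0.567), and Sqle, squalene epoxidase, stood at 354, 250.0 and 239 CPM and 389, 271 and 249.9 CPM (-0.11 ± 0.09). Levels of both followed the library number and the 2 times overlapped. Among 14 fatty acid synthesis genes Fasn (by 0.37 ± 0.10) and Acly (by 0.31 ± 0.09) fell. Scd1 (0.18) and Scd2 (0.01) gave no call. The call of Fasn was lost without the block and without number 002 or 003. Neither list had a call by edgeR without number 003, where 2 members of each were lower at an unadjusted p under 0.05.

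LXR targets rose in part. Of 11 tested members 8 rose (12.9% of all genes did), but 4 of those 8, Abcg1, Apoe, Nr1h3 and Smpdl3a, are macrophage genes. Abca1, which loads cholesterol onto lipoproteins, had 89.7, 118 and 119 CPM at 24 h and 81.2, 69.6 and 81.9 CPM at 0 h (0.48 ± 0.13, adjusted p = 0.016), and Mylip, a ubiquitin ligase, had 18.3, 20.8 and 20.6 CPM and 9.76, 9.09 and 10.1 CPM (1.04 ± 0.17). Both were higher in every 24 h library, number 001 included. Abcg1 had 0.244, 15.7 and 21.6 CPM and 0.197, 1.41 and 2.24 CPM (3.20 ± 0.44), and Apoe had 2.19, 51.9 and 76.0 CPM and 0.986, 9.84 and 11.8 CPM (2.45 ± 0.31). These 2 were near 0 in number 001 at both times, whose median over the list was 0.18. Without the block 2 members rose, and 4 without number 003. The call of Abca1 was lost without the block and without number 002 or 003, and that of Mylip held in each of the 19 alternatives run. Plin2, which coats lipid droplets, gave no call (165, 209.9 and 229 CPM, 204, 233 and 235 CPM, -0.16, adjusted p = 0.0951).

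Lysosomal genes rose slightly, 16 of 30 (12.9% of all genes rose) with a median of 0.35. Arsa, which degrades the myelin lipid sulfatide, had 127, 97.2 and 124 CPM at 24 h and 98.3, 63.4 and 68.5 CPM at 0 h (0.62 ± 0.15, adjusted p = 0.00826), and the libraries of the 2 times overlapped. The list's median was 0.13, 0.33 and 0.55 within numbers 001, 002 and 003, with the macrophage RNA share at 24 h at 0.00407%, 1.31% and 1.61%, and the part of that RNA in these changes was not tested. The call of Arsa was lost without number 002 or 003. Without the block 6 rose, as without number 002. Without number 003 none passed in edgeR, while 10 were higher at an unadjusted p under 0.05 and the median was 0.22. Of 22 fatty acid oxidation genes 8 rose, Cpt1a, which admits fatty acids to mitochondria, to 152, 161 and 168 CPM, against 133, 96.5 and 92.9 CPM (0.61 ± 0.13), and Cpt2 to 41.2, 39.0 and 41.2 CPM, against 29.3, 29.1 and 26.1 CPM (0.52 ± 0.12). Only Ucp2 among the 8 is a macrophage gene. Of this list 3 rose without number 002, and without 003 none passed in edgeR, where 7 were higher at an unadjusted p under 0.05, and the call of Cpt1a was lost in both.

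Transcripts that would mark myelin-making cells were few. The 16 listed myelin genes, tested or not, summed to 48.3 to 63.9 CPM at 24 h, against 33.2 to 34.9 CPM at 0 h. Of the 7 tested 4 rose, where 12.9% of all genes rose. Cnp, also used by other cells, had 29.0, 27.8 and 30.4 CPM and 26.8, 21.8 and 20.7 CPM (0.35 ± 0.12), a call lost without the block and without number 002 or 003, and Aspa, which hydrolyses N-acetylaspartate, rose by 1.16 ± 0.30. Mbp and Trf rose as well but are macrophage genes by the mark. Without the block none of the 7 rose by edgeR (1 at an unadjusted p under 0.05), and without number 003 none did (2 at an unadjusted p under 0.05), while 1 rose without number 002. Ermn, Opalin, Ugt8a and Fa2h had no count in any of the 6 libraries.

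Some stress and metabolism lists held more falls than rises, where 15% of all genes fell and 12.9% rose. Of 24 NRF2 targets 7 fell and Fth1, the ferritin heavy chain, rose (0.49 ± 0.16). Nqo1, a quinone reductase, had 104, 85.2 and 106 CPM at 24 h and 205, 179 and 199 CPM at 0 h (-0.98 ± 0.17, adjusted p = 0.00131), while Hmox1 gave no call (129.5, 176 and 219 CPM, 129, 130.5 and 137 CPM, 0.35). Of 26 genes of the integrated stress response 10 fell, led by Atf3 (by 1.33 ± 0.37), a macrophage gene by the mark, and Ddit3 did not pass (0.47). Of 27 glycolysis and hypoxia genes 9 fell and 2 rose. Vegfa, the endothelial growth factor, had 64.4, 68.5 and 65.9 CPM and 85.8, 154 and 143 CPM (-0.92 ± 0.16), and hexokinase Hk2 fell by 0.88 ± 0.21. Heat shock genes fell in 4 of 15. The respiratory chain had fewer calls than the shares over all genes, with 1 of 30 higher and 2 lower and a median of -0.002. Of 20 chaperones of the endoplasmic reticulum 1 rose and none fell by edgeR or DESeq2, with a median of 0.12. That rise was lost without the block and without number 002 or 003. The call of Fth1 was lost without the block and without number 002 or 003. In each of these lists at most 4 members fell without number 002 or 003, and the calls of Atf3 and Hk2 were lost in both fits.

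Calls in the inflammatory list were no more frequent than over all genes and went both ways. Of 27 tested members 4 rose and 2 fell, where 12.9% of all genes rose and 15% fell, and the list's median was -0.06. Ptgs2, the inducible cyclooxygenase, had 165, 183 and 189 CPM at 24 h and 532, 653 and 617 CPM at 0 h (-1.74 ± 0.18, adjusted p = 7.08e-05), a gap far wider than the spread within either time. Il6st, the gp130 receptor chain, had 828, 865 and 764 CPM and 508, 493 and 476 CPM (0.74 ± 0.09), and Osmr, the oncostatin M receptor, had 98.9, 114 and 104 CPM and 61.1, 66.5 and 72.2 CPM (0.67 ± 0.13). Ccl2 (-0.20) and Il6 (0.16, near 1 CPM) gave no call. The alarmin Il33 rose (0.95 ± 0.30), a call lost without number 002 or 003, and Tnf also rose but is a macrophage gene. The calls of Osmr and Axl were lost without number 003, and that of Axl without 002 too. Among receptors and bridges for dying cells and debris, Gas6, the ligand of the TAM receptors, had 157, 140.1 and 165 CPM and 89.0, 81.4 and 84.1 CPM (0.86 ± 0.13), and its receptor Axl had 615, 615 and 604 CPM and 779, 856 and 836 CPM (-0.43 ± 0.08). Gas6 was higher and Axl lower in every 24 h library. Cyp1b1, a target of the aryl hydrocarbon receptor, rose by 0.84 ± 0.20, and of 18 clock genes 5 fell, Bhlhe40 most (by 0.68 ± 0.13), and Tef rose (0.28 ± 0.07). Of the clock genes 1 fell without number 002 and 1 without 003. The calls of Tef and Cyp1b1 were lost without the block and without number 003.

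Several of the largest changes lay outside these lists. Sema3d, a secreted guidance cue, had 16.3, 18.7 and 27.4 CPM at 24 h and 1.58, 1.41 and 1.83 CPM at 0 h (3.74 ± 0.47, adjusted p = 0.000189), and Fndc1 had 109.6, 34.2 and 41.3 CPM and 20.2, 5.04 and 3.74 CPM (3.01 ± 0.44). Elobl had the largest log2 rise among called genes at 10 CPM or more that are no macrophage genes, at 20.7, 163 and 261 CPM and 6.11, 8.76 and 12.0 CPM (4.06 ± 1.14, adjusted p = 0.0198), with a smaller rise in number 001. Iigp1 and Tgtp2, interferon-inducible GTPases, rose by 3.02 ± 0.37 and 2.44 ± 0.37, and Megf6 and Slc26a7, an anion transporter, by 2.73 ± 0.38 and 2.65 ± 0.42. Downward, Rgs16, which shortens G protein signals, had 6.83, 4.79 and 5.29 CPM and 22.0, 56.1 and 52.96 CPM (-2.82 ± 0.46, adjusted p = 0.000752), and Acsbg1, an acyl-CoA synthetase, had 1.38, 3.94 and 3.98 CPM and 9.76, 26.9 and 25.2 CPM (-2.73 ± 0.23). Sema7a fell by 2.42 ± 0.39, Tcim by 2.72 ± 0.45, Ccbe1 by 2.68 ± 0.51 and Vmn2r79 by 2.44 ± 0.22. Arc, an immediate early gene of neurons, fell by 2.55 ± 0.85, with the 0 h library of number 001 far above the rest (1.14, 1.85 and 4.56 CPM at 24 h, 66.3, 4.46 and 5.81 CPM at 0 h). The calls of Elobl and Arc were lost without number 002 and without 003, and that of Ccbe1 without 003. The call of Arc was also lost without number 001, without the 0 h library of 001 alone and without the block. Over the 19 alternatives run, its log2 change ran from -3.92 to -0.71 and its call held in 9. That of Elobl held in 10. Iigp1, Tgtp2 and Vmn2r79 have near copies in their gene families, so their reads may be shared with those.

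Macrophage genes rose in numbers 002 and 003. Of 412 tested 232 rose and 3 fell, with a median of 1.46, against 1525 higher and 2033 lower of the other 13191 genes. Within numbers the median was 0.00 in 001, 1.53 in 002 and 1.47 in 003. The markers Lyz2 and C1qa, which fall short of the mark of 20 times, followed the same numbers. Lyz2, lysozyme, had 79, 12898 and 17412 counts at 24 h and 28, 2007 and 2747 counts at 0 h, and C1qa, of complement, had 2, 865 and 1189 counts and 2, 204 and 266 counts. Number 001 thus had almost none of either. The largest rises of such genes, Stra6l (4.49 ± 0.85), Ccl6 (4.24 ± 0.70), Fxyd2 (3.98 ± 0.63), Fabp4 (3.96 ± 0.91) and Chn2 (3.75 ± 0.85), came from levels of at most 12.2 CPM at 24 h and 0.415 CPM at 0 h. The 3 that fell were Nptx1 (-2.31 ± 0.73), Atf3 and Kcnn4 (-0.76 ± 0.16). A further set, 211 genes at under 10% in number 001 of their level in the others, chosen after seeing the data, held 176 that rose, and 202 of the 211 were over 4 times higher in macrophages. Fcgr2b (0.0813, 14.4 and 18.3 CPM at 24 h, 0, 1.90 and 3.24 CPM at 0 h) and Plek (0.488, 52.95 and 59.0 CPM, 0.0986, 8.85 and 11.2 CPM) belong to it and fall short of the mark as well.

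C1qa and Ctss, given as examples, did not keep the proportion they had in the study's macrophages. At 0 h C1qa averaged 12.85 CPM in these tumour libraries, against 75.5 CPM in macrophages alone at 0 h, while Ctss averaged 12.39 CPM, against 4821 CPM. The tumour means take in number 001, which had 2 counts of C1qa and 8 of Ctss at 0 h. Xist, at 1153 and 652 CPM in the macrophage libraries 002 and 003 at 24 h, had 1 count each in the tumour libraries of these numbers (0.0781 and 0.0738 CPM). It ranked 1 of the 50 share genes, which were picked for low levels in tumour libraries. Its gap follows from that choice, and nothing is drawn from it. The source of these transcripts was not tested.

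**Figure D4:**
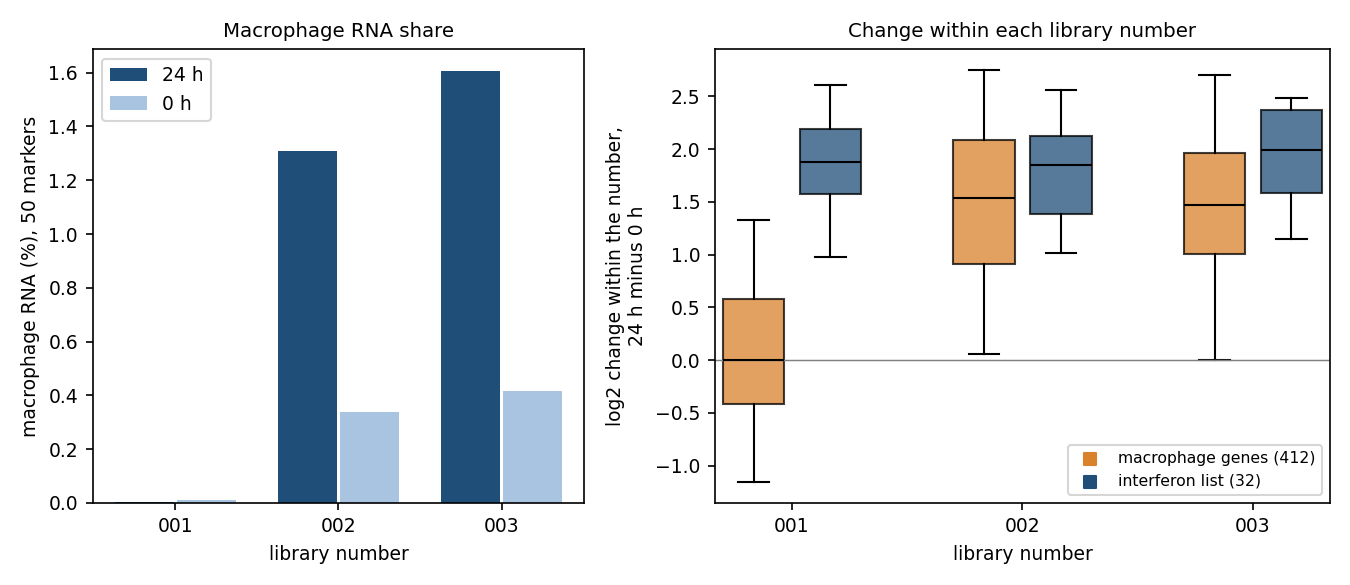
Left, macrophage RNA share of each library (y axis, %, over 50 genes) by library number (x axis) at 24 h and 0 h in glioma cells alone. Right, log2 change at 24 h against 0 h within each number for 412 macrophage genes and 32 interferon genes, as boxes of the quartiles with whiskers from the 5th to the 95th percentile; the macrophage genes centre on 0 in number 001 and the interferon genes rise in all 3 numbers.

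At 6 h few genes differed from 0 h. Against 6 h, 3819 genes (28.1%) differed at 24 h, while 35 (0.257%) differed between 6 h and 0 h (DESeq2 188). The first count was 1573 without number 002 and 257 without 003, and the second 856 without number 001, 0 without 002 (edgeR; 604 at an unadjusted p under 0.05), 8 without 003, all of them higher, and 1 without the block. These comparisons share libraries, so values are set side by side only. Ifit1 was at 82.0, 67.4 and 74.0 CPM at 6 h, Mcm3 at 54.8, 61.5 and 77.8 CPM and Tnc at 1139, 2120.0 and 2947 CPM. Interferon genes had a median of 0.47 at 6 h and 30 of 32 were higher at 24 h than at 6 h, and 24 of 24 ribosome biogenesis and 20 of 25 S phase genes were lower. At 6 h no interferon gene had passed in edgeR, where 7 had an unadjusted p under 0.05, and 1 passed in DESeq2. A few immediate early genes were the exception. Egr3 was at 7.02, 7.26 and 5.24 CPM at 6 h, Egr1 at 57.7, 129 and 104 CPM and Ptgs2 at 211, 287 and 347 CPM, and against 0 h they had fallen by 2.65 ± 0.49, 1.84 ± 0.32 and 1.12 ± 0.18. These falls were not called without number 002 or without 003. Between 6 h and 24 h Egr3 (-0.53 ± 0.55, adjusted p = 0.505) and Egr1 (0.26 ± 0.32, adjusted p = 0.584) gave no call.

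In co-culture with macrophages the same tumour line gave 1263 calls at 24 h against 0 h (9.28%), 579 higher (4.26%) and 684 lower (5.03%). Of the 1034 genes called in both cultures, 27.3% of those called alone and 81.9% of those called in co-culture, 1030 moved the same way. Ifit1 had 286, 96.2 and 86.3 CPM at 24 h and 50.8, 27.0 and 21.2 CPM at 0 h in co-culture (2.17 ± 0.27), and 28 of 32 interferon genes rose there. Hbegf changed by -1.73 ± 0.18 and Ogn by 1.89 ± 0.29. Tested directly, the 24 h change differed between cultures for 28 genes (0.206%), 27 of them higher (0.198%) and 1 lower (0.00735%) alone. Of the 28, 22 are macrophage genes, 25 are at under 10% in number 001, and AI506816 alone is neither (-0.60 ± 0.06 alone, -0.10 ± 0.06 in co-culture). The macrophage share of co-cultured tumour libraries was 0.0472%, 1.201% and 1.32% at 24 h, against 0.0217%, 1.93% and 1.49% at 0 h, so it was lower at 24 h than at 0 h in numbers 002 and 003. The count of genes that differed between cultures was 9 without the co-culture 0 h library of number 001, 161 without its 24 h library, and 593 without number 001 throughout. Leaving out any single library of number 002 or 003 left 0 to 17 calls in edgeR, with 804 to 1301 genes at an unadjusted p under 0.05.

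Cell cycle genes had other medians in co-culture, and the difference between cultures did not pass the test. S phase genes had a median of -0.35 there, and none passed in edgeR, where 6 had an unadjusted p under 0.05, with 3 in DESeq2. Mcm3 had 44.8, 80.0 and 77.6 CPM at 24 h and 74.2, 112 and 107 CPM at 0 h in co-culture (-0.54 ± 0.19, adjusted p = 0.0856). The direct test of the difference called none of the 25 genes in edgeR, while 23 were lower alone at an unadjusted p under 0.05 and 2 in DESeq2. Mcm3 gave a difference of -0.90 ± 0.27 with an adjusted p of 0.255. Genes of G2 and mitosis had a median of 0.26 in co-culture, against -0.89 alone, and none passed there in edgeR (1 higher at an unadjusted p under 0.05) or DESeq2. The direct test called none of these 25 genes in edgeR or DESeq2, while 22 were lower alone at an unadjusted p under 0.05.

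Macrophages alone given the same debris gave 2820 calls of 14776 genes (19.1%). The 24 h change differed between tumour cells and macrophages for 1914 genes (13%), 889 of them higher (6.02%) and 1025 lower (6.94%) in tumour cells, 1052 and 829 with RLE size factors, and 1155 and 959 with DESeq2. It was 510 genes without number 002 and 306 without 003. For Ifit1 the change was 2.38 ± 0.27 in tumour cells and 0.03 ± 0.39 in macrophages, a difference of 2.35 ± 0.48 (adjusted p = 0.00163), and 27 of 32 interferon genes differed this way. Sterol synthesis genes separated the cell types too. Idi1, which isomerises isopentenyl diphosphate, changed by -0.18 ± 0.12 in tumour cells and -3.08 ± 0.17 in macrophages (difference 2.91 ± 0.21, adjusted p = 1.60e-09), and 19 of 20 members of the list fell in macrophages (8.39% of all genes did), with a median of -2.16. Abca1 changed by 0.48 ± 0.13 and 3.24 ± 0.22 (difference -2.76 ± 0.30, adjusted p = 1.46e-06). Mitotic genes had a median of 0.81 in macrophages, and all 25 were lower in the tumour cells' change than in that of macrophages. Both cell types lowered ribosome biogenesis genes, 24 of 24 in tumour cells and 19 in macrophages, and Myc by 1.17 ± 0.12 and 1.46 ± 0.14.

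**Figure D5:**
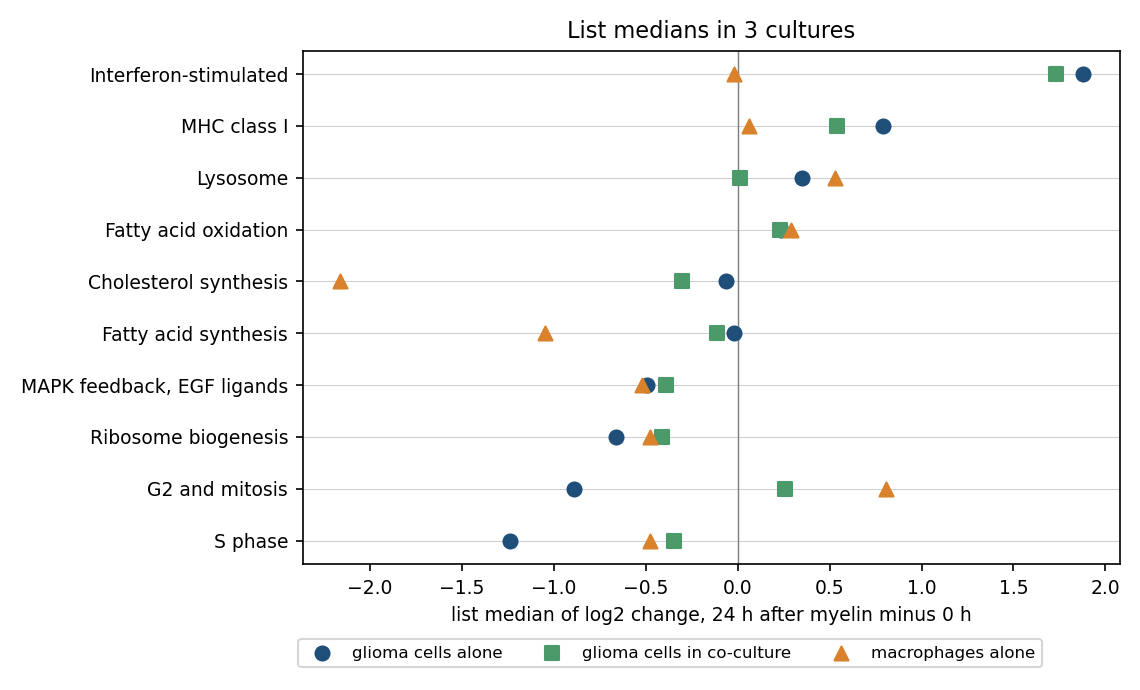
Median log2 change at 24 h against 0 h (x axis) of each gene list (rows) in glioma cells alone, glioma cells in co-culture and macrophages alone. The interferon list stands at 1.88, 1.73 and -0.02 in these 3, and cholesterol synthesis at -0.06, -0.30 and -2.16.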

How the data were processed

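Bulk RNA was sequenced from FACS-purified cells, with oligo-dT priming and template switching per the labels' protocols. The authors deposited 1 table of raw counts per gene for 36 libraries, 12 groups of 3, on build mm10 per the submitters' processing notes. The aligner, the counter and its handling of strand and of near copies are not stated in the labels, nor is any use of molecular identifiers, and the count of a gene can hold amplified copies. The table has 29883 genes, of which 17197 are protein-coding, and every gene with enough counts was tested.

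From these counts edgeR 4.0.16 (R 4.3.3, filterByExpr at a minimum count of 10, TMM scaling, robust quasi-likelihood test) fitted the 18 tumour cell libraries in 1 model of 6 groups plus the library number as a block. The coefficient of biological variation was 0.114 with the block and 0.225 without it. The block follows the numbers in the titles: deviations of libraries of the same number correlated at 0.771, 0.50 and 0.627 between 24 h and 0 h, and at no less than 0.438 in the pairs of groups checked, above the limit of 0.1. The highest correlation with another number was -0.598, 0.602 and 0.551, so the check tells number 001 from the others but not 002 from 003. Tumour cells were set against macrophages in 1 fit of 36 libraries with the number within cell type as the block. P-values were adjusted by Benjamini and Hochberg over all genes tested, with a threshold of 0.05. Standard errors are the log2 change over the square root of F, and CPM are TMM-scaled. The scripts were tested on simulated data.

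A macrophage gene is one whose mean CPM in macrophages alone, at 24 h or 0 h, is over 20 times its mean in the 6 tumour libraries. Genes named are the 12 largest calls each way at a mean of at least 10 CPM that changed the same way in all 3 pairs, up to 3 called members of each list, 49 set genes, the 5 largest called macrophage genes each way, and the 4 largest calls each way of the other comparisons. A few genes that this rule names are not reported here. Further list members are named as examples and were chosen after their values were seen. The members and lists were chosen with earlier results of these data known. List genes missing from the table were not analysed here.

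The tests were repeated with DESeq2 1.42.0, with RLE size factors, with no filter on low counts, other blocks, only the libraries compared, and each library or number left out. Libraries of 1 group were compared in pairs by chi-square over their counts and none was a duplicate of another. Promoter sequences are from RefSeq for GRCm38.p6, matched by gene symbol.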

Additional observations from a re-analysis of the deposited data

Results flagged for a closer look

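These are genes whose 24 h change differed between cultures or between cell types, by an edgeR quasi-likelihood test of the difference itself, adjusted over all genes of the comparison. Groups of 3 libraries are too small to screen for a library that stands apart.

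Between tumour cells alone and tumour cells in co-culture, the difference was 3.06 ± 0.47 for Fcgr2b (log2, SE, adjusted p = 0.0232) and 2.39 ± 0.43 for Plek (adjusted p = 0.0468). Both had less than 1 CPM in number 001 alone, where the macrophage RNA share was 0.00407% at 24 h. AI506816 gave -0.499 ± 0.085 (adjusted p = 0.0372), with 216, 218 and 203 CPM at 24 h and 347, 313 and 307 CPM at 0 h in tumour cells alone.

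Between tumour cells and macrophages, sterol and lipid synthesis genes were the most numerous among the genes named here, each higher in the change of tumour cells. The difference was 2.91 for Idi1, 2.74 for Sqle, 2.37 for Fdft1, 2.09 for Insig1, 1.94 for Hmgcs1, 1.34 for Fasn and 1.12 for Scd2, with adjusted p-values of 1.6e-09 (Idi1) to 0.000106 (Hmgcs1). Hmgcs1, for example, changed by -0.07 in tumour cells and -2.01 in macrophages.

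Export and uptake genes split. The difference was -2.76 ± 0.30 for Abca1 (adjusted p = 1.46e-06) and -1.06 ± 0.15 for Plin2 (adjusted p = 2.71e-05). For Abcg1 it was 1.46 ± 0.49 (adjusted p = 0.0488), for Apoe 2.47 ± 0.39 (adjusted p = 0.000154) and for Cd36 1.98 ± 0.49 (adjusted p = 0.00814). Abcg1, Apoe and Cd36 are macrophage genes at or near 0 in number 001, and the part of macrophage RNA in these differences was not tested.

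The BMP targets Id3 and Id1 differed, with 4.16 ± 0.41 for Id3 (adjusted p = 4.58e-07) and 3.11 ± 0.47 for Id1 (adjusted p = 7.65e-05). Id3 changed by 0.93 in tumour cells and -3.23 in macrophages. The BMP antagonist Grem1 gave -3.77 ± 1.15 (adjusted p = 0.0318).

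The difference was 2.35 ± 0.48 for Ifit1 (adjusted p = 0.00163), 1.32 ± 0.33 for Ccnd1 (adjusted p = 0.00934) and 0.949 ± 0.174 for Asns, asparagine synthetase (adjusted p = 0.000578). It was -1.51 ± 0.43 for Mki67 (adjusted p = 0.0217), -0.643 ± 0.190 for Cd44 (adjusted p = 0.0246) and -0.66 ± 0.19 for Axl (adjusted p = 0.0189).

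Other large differences were 4.99 ± 0.50 for Dmpk (adjusted p = 4.29e-07), where macrophages averaged 0.665 CPM at 24 h and 15.2 CPM at 0 h, -3.83 ± 1.06 for Sema7a (adjusted p = 0.0166), -3.61 ± 0.73 for Fam110c (adjusted p = 0.00149) and -3.48 ± 0.61 for Ccbe1 (adjusted p = 0.000412). Sema3d gave 7.57 ± 2.1 (adjusted p = 0.0175). In macrophages Sema3d averaged 0 CPM at 24 h and 0.126 CPM at 0 h, so the size of this fitted difference depends on the prior count.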

How the results depend on the processing

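For 24 h against 0 h, counts of calls were 2974 to 4537 with DESeq2, RLE size factors, no filter, non-robust dispersions, the block within culture, the compared libraries only, or without macrophage or other marked genes. With no replicate block it was 1424, for 24 h against 6 h 1642, for 6 h against 0 h 1, for the cultures 0 (edgeR; 496 at an unadjusted p under 0.05) and for tumour cells minus macrophages 576. For 6 h against 0 h DESeq2 gave 188, no filter on low counts 54, the block within culture 74 and the compared libraries 21. For alone minus co-culture DESeq2 gave 87, the compared libraries 137, the test without macrophage genes 1, and the block within culture and the set also without genes under 10% in number 001 (added after seeing the data) 0 each (edgeR; 1590.0 and 1035 unadjusted). Leaving out 1 library or 1 number gave 673 to 4915 calls for 24 h against 0 h, 257 to 5449 for 24 h against 6 h, 0 to 856 for 6 h against 0 h, 0 to 593 for alone minus co-culture and 306 to 2275 for tumour cells minus macrophages. The split of calls between higher and lower turned with the setting. For tumour cells minus macrophages, 889 higher and 1025 lower, it was 1155 and 959 with DESeq2, 1052 and 829 with RLE size factors, 740.0 and 556 with no filter, 1286 and 864 with the compared libraries, and 1369 and 906, 359 and 151, and 198 and 108 without number 001, 002 or 003. For alone minus co-culture, 27 and 1, it was 277 and 316 without number 001, and for 6 h against 0 h, 13 and 22, it was 8 and 0 without number 003 (edgeR; 714 in all at an unadjusted p under 0.05). Without number 002 6 h against 0 h and the cultures had 0 (edgeR; 604 and 530 unadjusted). The rise in macrophage RNA share, 0.717 percentage points, was 0.289 with 20 markers and 2.76 with another list. Among values of named genes 4174 kept their side of the threshold, 527 fell short of it and 35 passed it. The causes were not tested. Depth limits calls of genes under a few CPM.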
